A study of Homo sapiens with 5 samples.

Results

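Wnt ligands, their Frizzled receptors and the proteins that modulate them were followed in Rh41 cells after knockdown of H3F3A. The set was drawn by gene symbol. It takes every row named as a WNT, FZD, SFRP, DKK1 to DKK4, RSPO or LGR4 to LGR6 gene, together with a fixed list of receptors, antagonists and intracellular components. This gave 67 of the 43714 gene rows, and 44 of the 67 passed the filter on low counts. CPZ and SHISA2 were added because they were already known to have fallen in these libraries, so their values and errors are given as a description with no p-value, and counts are given without them.

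Rh41 is an established line of fusion-positive alveolar rhabdomyosarcoma, a tumour that carries a PAX-FOXO1 fusion and resembles undifferentiated muscle. Cells received an siRNA against H3F3A (n = 3 libraries, replicates 1, 2 and 3) or a scrambled siRNA (n = 2 libraries, replicates 1 and 3), and poly-A RNA was sequenced after 48 hours. Lipofectamine RNAiMAX was the carrier. H3F3A is 1 of the genes for the histone variant H3.3. The labels do not say whether replicates came from separate cultures, so p-values cover the variation among these 5 libraries alone, and that variation may be technical.

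The knockdown was read from the libraries themselves. H3F3A, listed as H3-3A, had 9.38, 10.5 and 8.54 CPM (the read count scaled to library size) in H3F3A siRNA libraries, against 294 and 269 CPM in scrambled libraries. Between 28493573 and 30705963 reads per library were assigned to genes. The line was checked by marker genes: 10 of 12 muscle and rhabdomyosarcoma markers had a mean over 1 CPM, including MYOD1, MYOG and DES, while MYF5 and MYF6 did not. No epithelial marker did, out of 6, and their sum ran from 0.227 to 0.435 CPM after H3F3A siRNA and from 0.171 to 0.236 CPM in scrambled libraries. Among fibroblast markers COL3A1, COL1A1 and PDGFRB were over 1 CPM, while DCN, LUM and THY1 were not. The slope of log2 CPM on transcript GC content, per 10 percentage points, was -0.0634, -0.0433 and -0.0451 in H3F3A siRNA libraries 1 to 3. In scrambled replicate 1 it was 0.159 and in scrambled replicate 3 -0.0074, so scrambled replicate 1 differed from every other library. Values from a fit with each library's GC trend removed are given beside the results they touch.

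Wnts are secreted glycoproteins that carry a lipid, which the acyltransferase PORCN attaches and the carrier WLS takes to the cell surface. They bind Frizzled receptors together with LRP5 or LRP6. Binding disables a complex built on AXIN and APC that otherwise destroys beta-catenin, the product of CTNNB1, which then acts in the nucleus with TCF and LEF factors. Several layers hold the signal back. SFRP and WIF1 proteins bind the ligands, DKK1 and DKK2 bind LRP5 and LRP6, NOTUM removes the lipid, and the ligases ZNRF3 and RNF43 clear Frizzled receptors unless R-spondins and LGR receptors stop them. In the embryo, Wnts from neighbouring tissues help to start the muscle programme in the somite.

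Among secreted antagonists and modulators, NOTUM and DKK3 fell after H3F3A siRNA by the test across all genes, while DKK1, DKK2, SFRP1 and SFRP4 did not pass it. That is 2 of 6 tested, CPZ left aside, where 2.69% of all 15859 genes tested were called lower and 0.504% higher. Neither call held with the GC trend removed. All 6 had a log2 fold change below 0, as did 48.6% of all genes. In 5 of the 6 every H3F3A siRNA library lay below both scrambled libraries, which was so for 17.1% of all genes. The median log2 fold change of the 6 was -0.28, and that of all genes was 0.0073. In bulk RNA, fewer cells of a type and less RNA per cell cannot be told apart. No ligand, Frizzled receptor, co-receptor, R-spondin receptor, intracellular component or TCF/LEF factor was called. Muscle and rhabdomyosarcoma markers summed to 5026 to 5156 CPM after H3F3A siRNA and 5740 to 6903 CPM in scrambled libraries. Of the 12, FGFR4 fell (log2 fold change -0.50, edgeR adjusted p = 0.00257) and TFAP2B rose (0.49, edgeR adjusted p = 0.00133). Endothelial markers, with 2 of 6 over 1 CPM, summed to 4.43 to 4.76 CPM after H3F3A siRNA and 5.52 to 5.62 CPM in scrambled libraries. Fibroblast markers summed to 1232 to 1292 CPM after H3F3A siRNA and 1213 to 1333 CPM in scrambled libraries, nearly all of it COL3A1, and COL1A1 and PDGFRB fell (log2 fold changes -0.36 and -0.36, edgeR adjusted p = 0.041 and 0.0162). Immune markers, of which CD68 alone was over 1 CPM, summed to 5.24 to 5.63 CPM after H3F3A siRNA and 4.98 to 5.42 CPM in scrambled libraries. Their part in the antagonist values was not tested.

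Sequence before the start site is shown for SHISA2, DKK1 and SFRP4, whose fold changes lay below 0 with those of the antagonist class and which have an entry in the RefSeq promoter table (GRCh38.p14). The table held 47 of the 67 genes. SFRP1, which also lay below 0, was left out of the printed set by its chromosome. The 250 bases before the start are printed on the gene's strand. They lie at chr13:26052017-26052266 (minus strand) for SHISA2, chr10:52314031-52314280 (plus strand) for DKK1 and chr7:37916818-37917067 (minus strand) for SFRP4. Capitals mark TATAA, the core of the TATA box, on the gene's strand, and CTTTG, the core bound by TCF and LEF factors, on either strand.
SHISA2: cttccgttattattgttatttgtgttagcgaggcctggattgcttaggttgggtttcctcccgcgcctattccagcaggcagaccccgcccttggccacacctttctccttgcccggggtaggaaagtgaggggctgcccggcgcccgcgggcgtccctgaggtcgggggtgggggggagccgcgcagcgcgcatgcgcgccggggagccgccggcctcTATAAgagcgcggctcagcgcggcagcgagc
DKK1: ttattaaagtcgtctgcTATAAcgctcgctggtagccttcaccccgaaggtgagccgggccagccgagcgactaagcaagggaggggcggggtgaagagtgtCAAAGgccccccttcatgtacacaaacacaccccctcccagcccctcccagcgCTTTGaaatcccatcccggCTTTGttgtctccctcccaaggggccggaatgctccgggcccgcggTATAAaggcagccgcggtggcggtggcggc
SFRP4: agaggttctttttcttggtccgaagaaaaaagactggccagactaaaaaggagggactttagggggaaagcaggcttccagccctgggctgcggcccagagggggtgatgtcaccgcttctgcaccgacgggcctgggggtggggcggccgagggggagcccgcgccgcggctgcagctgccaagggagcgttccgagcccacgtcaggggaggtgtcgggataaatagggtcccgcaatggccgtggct

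SHISA2 carried 1 TATAA, beginning 31 bases before the start. DKK1 carried TATAA beginning 30 and 233 bases before the start, and CTTTG in 3 places. SFRP4 carried neither run of letters. Among 27305 promoters of the same length, 14.3% held TATAA and 42.2% held CTTTG, and among the 47 Wnt promoters the shares were 10.6% and 21.3%. GC content of the printed stretches was 67.6% for SHISA2, 62.8% for DKK1 and 64.4% for SFRP4. A match is a description of the letters and says nothing on binding.

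CPZ encodes a secreted carboxypeptidase with a Frizzled-like cysteine-rich domain through which it binds Wnts. It had 130, 124 and 118 CPM in H3F3A siRNA libraries, against 215 and 177 CPM in scrambled libraries. All 3 knockdown libraries lay below both controls, with scrambled replicate 1 the highest. The log2 fold change was -0.66 (SE 0.0831), a 1.58-fold fall. With the GC trend removed it was -0.44.

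SHISA2 belongs to a family named after Shisa of Xenopus, which holds immature Frizzled and FGF receptors in the endoplasmic reticulum. It had 50.8, 56.3 and 54.6 CPM after H3F3A siRNA and 85.7 and 79.2 CPM in scrambled libraries. The groups were far apart relative to the spread within each. Its log2 fold change was -0.61 (SE 0.0782), a 1.53-fold fall, and -0.65 with the GC trend removed.

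NOTUM encodes the esterase that strips the lipid from Wnts and is itself induced by Wnt signalling in many tissues. It was scarce, with 101, 101 and 87 reads in H3F3A siRNA libraries and 136 and 147 reads in scrambled libraries. Scaled for depth these were 3.38, 3.48 and 2.81 CPM after H3F3A siRNA, against 4.66 and 4.95 CPM in scrambled libraries, without overlap. NOTUM fell 1.49-fold (log2 fold change -0.58, SE 0.155, edgeR quasi-likelihood adjusted p = 0.0427). The log2 fold change was -0.30 with the GC trend removed (edgeR adjusted p = 0.464). DESeq2 gave a log2 fold change of -0.58 and no adjusted p for NOTUM. The edgeR call was also lost without any 1 of the H3F3A siRNA libraries, at edgeR adjusted p from 0.0859 to 0.166. Leaving out scrambled replicate 1 or 3 leaves 1 control library, with log2 fold changes of -0.62 and -0.53.

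DKK3 encodes a divergent Dickkopf protein whose action on Wnt signalling is less settled than that of DKK1. It had 43.6, 46.6 and 42.6 CPM after H3F3A siRNA, against 58.3 and 51.2 CPM in scrambled libraries. The knockdown libraries lay close together and below both controls. DKK3 fell 1.24-fold (log2 fold change -0.31, SE 0.0824, edgeR adjusted p = 0.0437). With the GC trend removed the log2 fold change was -0.23 (edgeR adjusted p = 0.0642). The call was lost without scrambled replicate 1 (edgeR adjusted p = 0.34) and without H3F3A siRNA replicate 1, 2 or 3 (edgeR adjusted p = 0.233, 0.095 and 0.18).

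The other antagonists were lower without passing the test. DKK2, an LRP-binding Dickkopf, had 23, 22 and 12 reads after H3F3A siRNA and 31 and 38 reads in scrambled libraries. That is a log2 fold change of -0.88 with a wide 95% interval, from -1.54 to -0.22 (edgeR adjusted p = 0.144). SFRP1, a decoy with a Frizzled-like domain, had 26.9, 32.3 and 30.6 CPM after H3F3A siRNA and 34.4 and 36.5 CPM in scrambled libraries, again without overlap (log2 fold change -0.25, edgeR adjusted p = 0.141). The related SFRP4 had 9.65, 10.2 and 9.93 CPM against 12.6 and 10.6 CPM in scrambled libraries (log2 fold change -0.23, edgeR adjusted p = 0.305). DKK1 alone overlapped, at 6.4, 4.82 and 5.82 CPM after H3F3A siRNA and 6.14 and 7.04 CPM in scrambled libraries. Transcript GC content ran from 44.5% to 48.1% in DKK1, DKK2, SFRP4 and SFRP1, where the median of all genes lay above 0, and their log2 fold changes with the GC trend removed were -0.27, -0.93, -0.28 and -0.27. SFRP5 and WIF1 had at most 9 reads in a library, DKK4 at most 1 and SFRP2 none, and these 4 were not tested. CPM summed over the 11 genes of the class was 221, 223 and 211 in H3F3A siRNA libraries, against 333 and 289 in scrambled libraries, and CPZ supplied most of it.

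**Figure D1:**
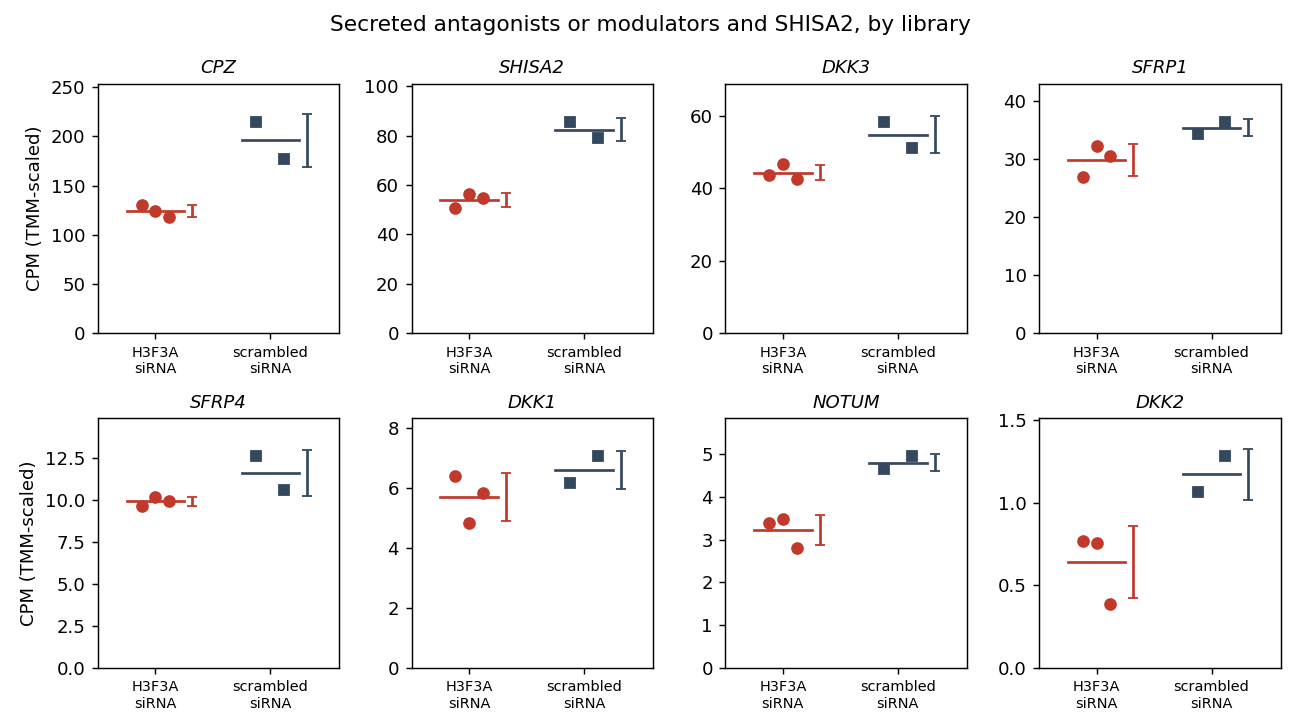
CPM (TMM-scaled, linear axis from 0) of the 7 tested secreted antagonists or modulators and SHISA2, 1 point per library, H3F3A siRNA (n = 3) on the left and scrambled siRNA (n = 2) on the right; horizontal lines are means and error bars 1 SD. Every panel except DKK1 shows all H3F3A siRNA libraries below both scrambled libraries, and NOTUM and DKK3 fell by the test across all genes.

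Over all roles, and without CPZ and SHISA2, 2 of 42 tested Wnt genes were called lower (4.76%) and none higher. Of all genes, 2.69% were called lower and 0.504% higher. By edgeR without adjustment, 11 were lower and 1 was higher at p under 0.05 (26.2% and 2.38%), where 10.9% of all genes were lower and 5.91% higher. DESeq2 called DKK3 and TCF7L1 lower and none higher, and over all genes it called 473 lower and 54 higher. All H3F3A siRNA libraries lay below both scrambled libraries in 14 of the 42 (33.3%, against 17.1% of all genes) and above them in 6 (14.3%, against 16% of all genes). The median log2 fold change of the 42 was -0.082. With the GC trend removed it was -0.0087, with 24 of the 42 below 0, and none of the 42 was called in either direction, where 1.31% of all genes were called lower and 0.643% higher. The 6 antagonists had a median of -0.27 in that fit, and all 6 lay below 0. With CPZ and SHISA2 included, 4 of 44 were called lower, a count that their choice partly fixes.

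**Figure D2:**
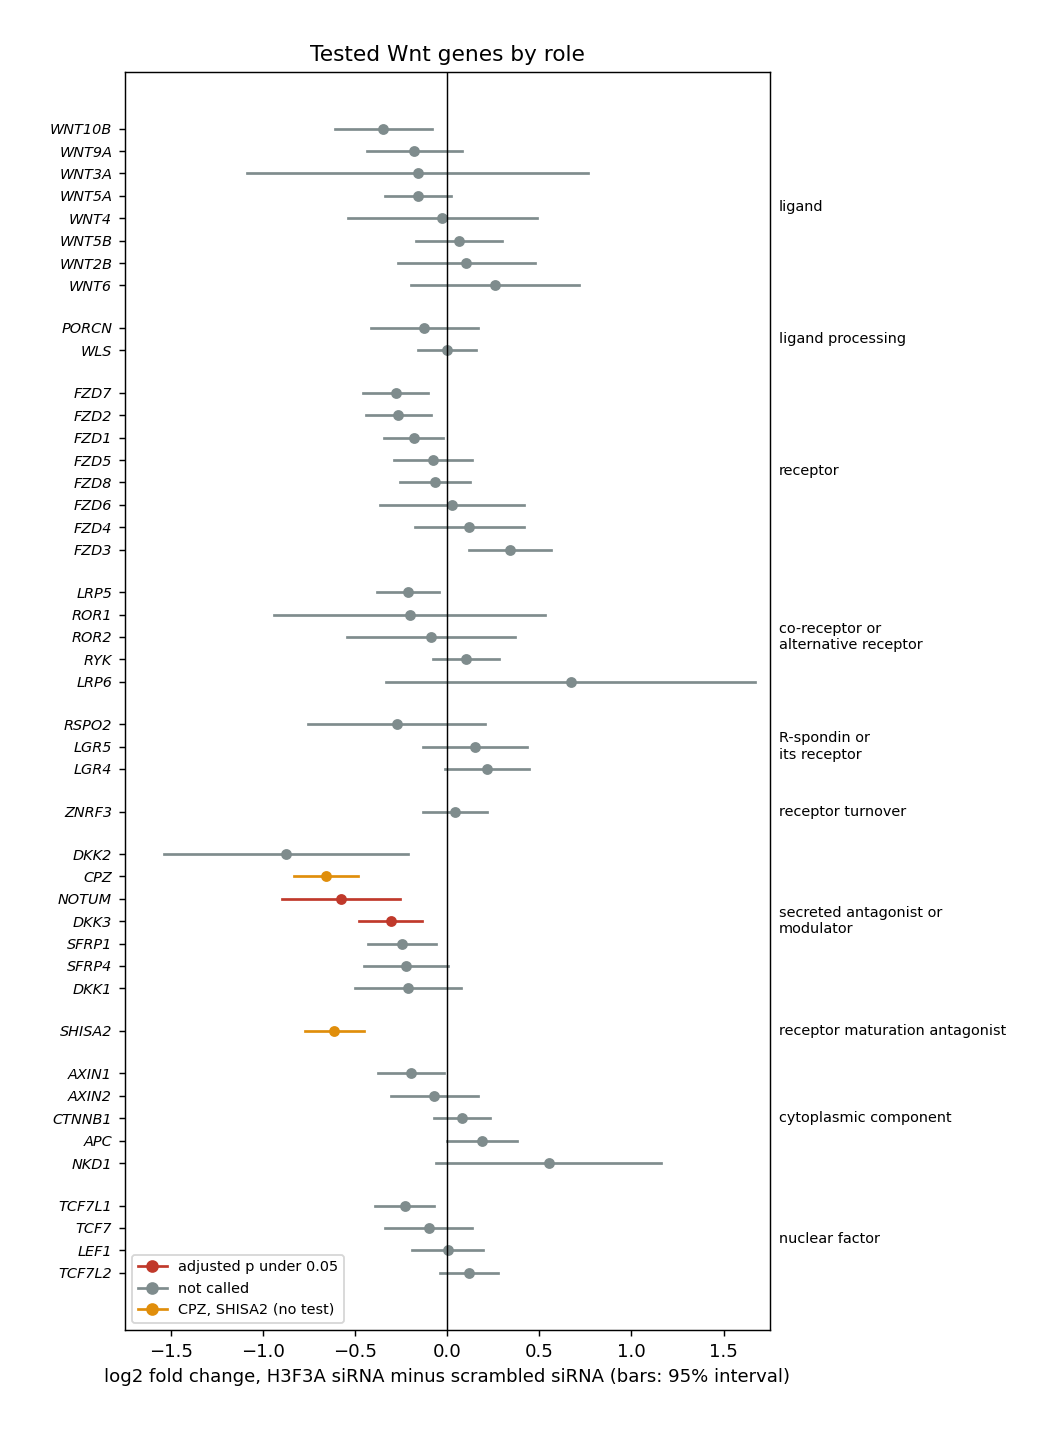
Log2 fold change (H3F3A siRNA minus scrambled siRNA, edgeR) of the 44 tested Wnt genes grouped by role, with 95% intervals; red marks adjusted p under 0.05, and orange marks CPZ and SHISA2, shown without a test. The red points are NOTUM and DKK3, and the intervals of most other genes include 0.

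The ligands were scarce and none was called. Of 19 WNT genes 8 could be tested. WNT5A, a ligand best known for signalling without beta-catenin, had the highest level per length, with 3.07 ± 0.107 CPM per kilobase of exon (SD, n = 3) after H3F3A siRNA and 3.43 ± 0.0467 CPM per kilobase (SD, n = 2) in scrambled libraries. Its libraries read 23.5, 22.8 and 21.9 CPM after H3F3A siRNA and 25.6 and 25.1 CPM with the scrambled siRNA. The groups did not overlap, but the log2 fold change of -0.16 did not pass (95% interval -0.34 to 0.02, edgeR adjusted p = 0.372). Next in order per length were WNT10B, WNT5B, WNT6 and WNT9A, whose 5-library means ran from 2.94 down to 1.66 CPM per kilobase. WNT10B, a ligand that acts through beta-catenin, had 7.57, 6.79 and 6.54 CPM, against 9.84 and 7.88 CPM in scrambled libraries (log2 fold change -0.35, edgeR adjusted p = 0.146, and -0.18 with the GC trend removed). WNT6 has the highest GC content of the set, at 71.7%, and its scrambled libraries differed between themselves, with 107 and 55 reads in replicates 1 and 3, against 87, 106 and 103 reads after H3F3A siRNA. Its log2 fold change was 0.26, and 0.65 with the GC trend removed (edgeR adjusted p = 0.0893). WNT8A and WNT9B had no read in any library, and the other 9 untested ligands had at most 6 reads in a library.

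Neither gene of ligand processing was called. WLS had 80.6, 80.6 and 80.5 CPM after H3F3A siRNA and 76.9 and 84.3 CPM in scrambled libraries, so the groups overlapped, and the 95% interval of its log2 fold change ran from -0.16 to 0.16. PORCN had 4.52, 5.38 and 5.89 CPM, against 5.76 and 5.73 CPM in scrambled libraries, and was not called (edgeR adjusted p = 0.706).

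Among 10 Frizzled receptors, FZD2 and FZD7 stood highest and FZD9 and FZD10 were not tested. Per kilobase, FZD2 had 37.8 ± 3.74 CPM after H3F3A siRNA and 45.5 ± 2.66 CPM in scrambled libraries (SD, n = 3 and n = 2). FZD7 followed with 22.7 ± 2.57 CPM per kilobase after H3F3A siRNA and 27.6 ± 0.238 CPM per kilobase in scrambled libraries, then FZD8 and FZD1. FZD5 was lower again, at a 5-library mean of 1.91 CPM per kilobase, and FZD3, FZD6 and FZD4 were each under 1. The knockdown libraries of FZD8 and FZD1 did not overlap each other in level per length, and those of FZD6 and FZD4 did.

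FZD7, a receptor that marks muscle stem cells in mice, had 77.2, 96.8 and 89.3 CPM after H3F3A siRNA and 107 and 106 CPM in scrambled libraries. Replicate 1 of the knockdown was the lowest, and no library crossed over. The log2 fold change was -0.28 (95% interval -0.46 to -0.10, edgeR adjusted p = 0.0758), and -0.25 with the GC trend removed (edgeR adjusted p = 0.137). FZD2 had 71.7, 80.6 and 87.5 CPM against 100 and 92.1 CPM in scrambled libraries (log2 fold change -0.27, edgeR adjusted p = 0.0894). With the GC trend removed its log2 fold change was -0.024. FZD1 had a log2 fold change of -0.18 (edgeR adjusted p = 0.221). FZD3, a receptor of planar polarity with a GC content of 35.2%, went the other way, with 11.6, 11.8 and 12.2 CPM after H3F3A siRNA and 8.91 and 9.8 CPM in scrambled libraries. Its log2 fold change was 0.34 (edgeR adjusted p = 0.0883), and 0.21 with the GC trend removed (edgeR adjusted p = 0.36).

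LRP5 was the co-receptor with most reads, and no co-receptor was called. It had 179, 198 and 204 CPM after H3F3A siRNA and 241 and 207 CPM in scrambled libraries. Scrambled replicate 3 lay close to the knockdown libraries and scrambled replicate 1 well above them. The log2 fold change was -0.21 (edgeR adjusted p = 0.172) and -0.015 with the GC trend removed. Without scrambled replicate 3, which leaves 1 control library, it was -0.32, and without scrambled replicate 1 it was -0.10. LRP6 had 10, 19 and 10 reads after H3F3A siRNA and 7 and 9 reads in scrambled libraries. The files list LRP6 on 2 rows, of which the second held no reads, so reads of LRP6 may have been lost as multimapping and its level is uncertain. RYK, an alternative Wnt receptor, had 33.9, 34.6 and 37.5 CPM after H3F3A siRNA and 31 and 35 CPM in scrambled libraries, which overlap. ROR1 and ROR2, receptor kinases that bind WNT5A, were at most 0.776 and 2.14 CPM in any library.

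The R-spondin branch was sparse. LGR4 and LGR5, the R-spondin receptors, had log2 fold changes of 0.22 (edgeR adjusted p = 0.333) and 0.15 (edgeR adjusted p = 0.624). LGR4 had 11.5, 12.2 and 13.2 CPM after H3F3A siRNA and 9.87 and 11.3 CPM in scrambled libraries, close but without overlap. RSPO2 was the R-spondin that passed the filter, with 49, 33 and 53 reads after H3F3A siRNA and 52 and 55 reads in scrambled libraries. RSPO1 and RSPO3 had no reads. ZNRF3, a ligase that removes Frizzled receptors, had 29.2, 30.7 and 31.6 CPM against 30.4 and 29 CPM in scrambled libraries. Its partner RNF43 had 1 read in all 5 libraries. A count of 0 allows up to 3 reads, which is 0.0971 to 0.103 CPM in these libraries, and covers counting error only. In all, 23 of the 67 genes were not tested and 6 of them had no read in any library.

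CTNNB1 and TCF7L1 were the most abundant intracellular members. CTNNB1 had 457, 449 and 455 CPM after H3F3A siRNA and 423 and 435 CPM in scrambled libraries. The knockdown libraries were all higher, but the difference was small, with a log2 fold change of 0.08 (95% interval -0.07 to 0.23, edgeR adjusted p = 0.618). TCF7L1, a TCF factor that mostly represses its targets, had the highest level per length of the whole set, with 79.8 ± 2.05 CPM per kilobase (SD, n = 3) after H3F3A siRNA and 93.7 ± 7.27 CPM per kilobase (SD, n = 2) in scrambled libraries. Not scaled by length, it had 351, 362 and 344 CPM after H3F3A siRNA, against 436 and 391 CPM in scrambled libraries. No knockdown library reached either control. The log2 fold change was -0.23 (edgeR adjusted p = 0.0993, and 0.0332 by DESeq2) and -0.12 with the GC trend removed (edgeR adjusted p = 0.293). TCF7L2, LEF1 and TCF7 had log2 fold changes of 0.12, 0.0027 and -0.10. AXIN1 and APC, scaffolds of the destruction complex, had -0.20 and 0.19, and with the GC trend removed 0.030 and 0.11.

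Of the feedback genes of the pathway, AXIN2, NKD1, LEF1, LGR5 and ZNRF3 were not called. NOTUM, which Wnt signalling also induces in many tissues, was called lower (log2 fold change -0.58), though not with the GC trend removed. AXIN2, often read as a gauge of beta-catenin activity, had 9.78, 9.24 and 10.3 CPM after H3F3A siRNA and 9.39 and 11.1 CPM in scrambled libraries. Its log2 fold change was -0.07 with a 95% interval of -0.31 to 0.17, and its groups overlapped. NKD1, a feedback inhibitor at the Dishevelled step, had 37, 36 and 48 reads after H3F3A siRNA, against 36 and 18 reads in scrambled libraries (log2 fold change 0.55, edgeR adjusted p = 0.361). NKD2, WNT3 and WNT9B, like LRP6, have extra rows in the files, and their counts of at most 6 reads in a library are uncertain.

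**Figure D3:**
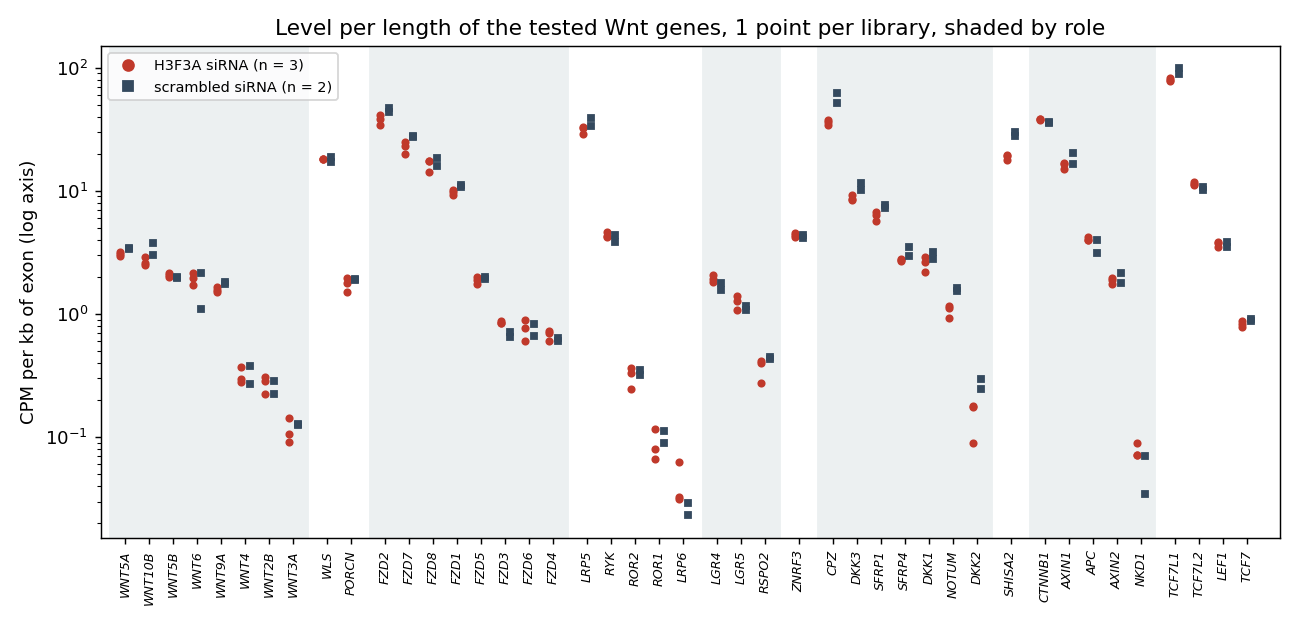
Level per length (CPM per kilobase of exon, log axis) of the 44 tested Wnt genes in each library, H3F3A siRNA (red circles) left of scrambled siRNA (dark squares), ordered by level within each role. TCF7L1 is the highest, at 79.8 CPM per kilobase on average after H3F3A siRNA and 93.7 in scrambled libraries, and LRP6 the lowest.

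Fold changes over all genes differed with GC content. The median log2 fold change of all genes tested was 0.11 in the lowest of 10 GC classes and -0.23 in the highest, and 14.7% of the genes in the highest class were called lower, against 0.209% in the lowest. CPZ, NOTUM, FZD2, FZD8, LRP5, AXIN1, WNT3A and WNT6 lie in the highest class. With each library's trend removed, the log2 fold changes of LRP5, AXIN1 and FZD2 were -0.015, 0.030 and -0.024. DKK3 lies in a class with a median of -0.0372 and 1.95% called lower. SHISA2 lies in a class with a median of 0.032 and 0.557% called lower.

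**Figure D4:**
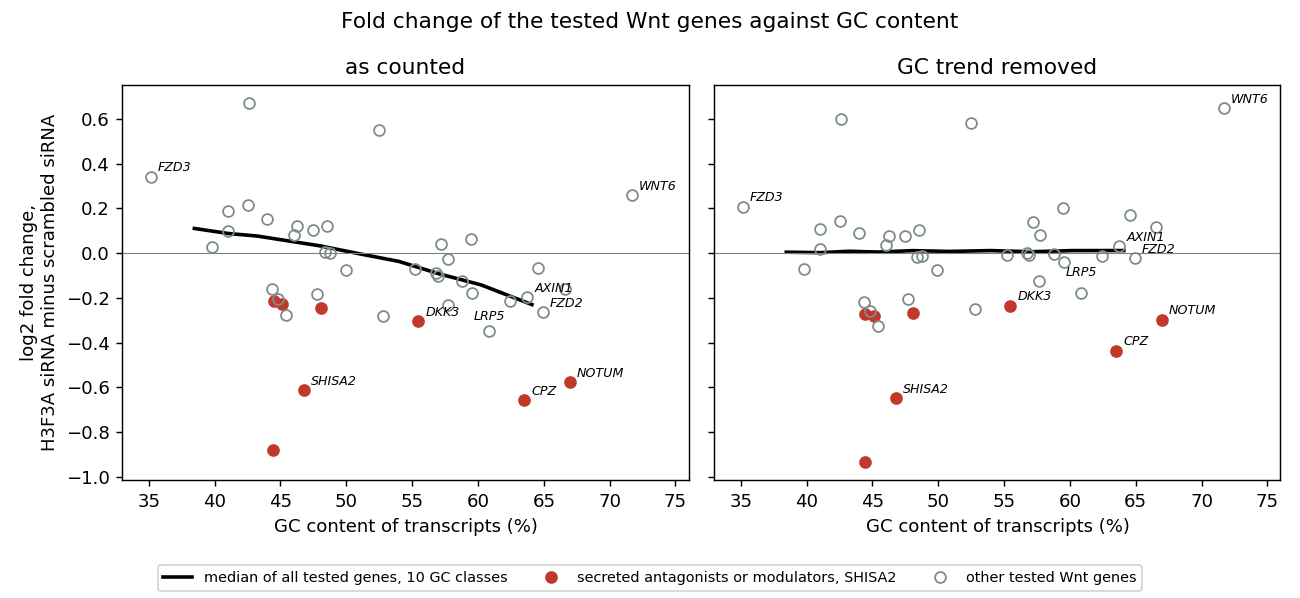
Log2 fold change (H3F3A siRNA minus scrambled siRNA) against the GC content of a gene's transcripts in percent, as counted (left) and with each library's GC trend removed (right); the line joins medians of all tested genes in 10 GC classes. The 6 antagonists other than CPZ (filled) stay below the line in both panels, while LRP5, AXIN1 and FZD2 lie near 0 on the right. CPZ and SHISA2 (filled) also lie below it, but they were chosen because they had fallen.

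Beyond these genes, 180 further genes of the pathway were listed by role, of which 150 could be tested. The list was written with earlier results of these data known, so its shares beside those of all genes are a description only. Of these, 10 fell (6.67%, against 2.69% of all genes), 1 rose (0.667%, against 0.504% of all genes) and 139 were not called. The median log2 fold change was 0.0069, and 48.7% lay below 0. Among 34 tested transcriptional targets 5 fell (14.7%, against 2.69% of all genes) and none rose. At an unadjusted p under 0.05 by edgeR, 11 were lower (32.4%, against 10.9% of all genes) and 3 higher (8.82%, against 5.91% of all genes). CCND1, the cyclin of G1, had 75.2, 71.7 and 79.9 CPM after H3F3A siRNA and 110 and 107 CPM in scrambled libraries, far apart relative to their spread (log2 fold change -0.52, SE 0.0758, edgeR adjusted p = 0.000839). FOSL1, an AP-1 subunit, fell by 0.60 (edgeR adjusted p = 0.0055), and VEGFA, the angiogenic factor, fell by 0.36 (edgeR adjusted p = 0.014) on the log2 scale. These 3 were also called with the GC trend removed. The ephrin receptor EPHB3 and the adhesion molecule L1CAM fell by 0.36 and 0.35 and were not called in that fit.

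Among 27 tested genes of ligand handling and co-receptors 3 fell (11.1%, against 2.69% of all genes) and none rose. Of the 27, 15 had a log2 fold change below 0 and 12 above (55.6% below, against 48.6% of all genes). DRAXIN, a secreted guidance protein that also antagonises Wnt signalling, had 90.4, 92.8 and 92.8 CPM after H3F3A siRNA and 124 and 114 CPM in scrambled libraries. It fell by 0.37 on the log2 scale (edgeR adjusted p = 0.00815) and by 0.33 with the GC trend removed (edgeR adjusted p = 0.00239). GPC1, a glypican, and ADGRA2, a co-receptor for WNT7 ligands with RECK, fell by 0.41 and 0.37, and with the GC trend removed neither was called (edgeR adjusted p = 0.138 and 0.316). Of 32 tested cytoplasmic genes 1 fell (3.12%, against 2.69% of all genes). It was DVL1, a Dishevelled protein, which fell by 0.33 (edgeR adjusted p = 0.0455, and 0.722 with the GC trend removed). Of 34 tested genes of the planar polarity and calcium branch, 1 fell and 1 rose (2.94% each, against 2.69% and 0.504% of all genes). NFATC1, a calcium-regulated transcription factor, fell by 0.31 (edgeR adjusted p = 0.045, and 0.294 with the GC trend removed). DAAM1, a formin downstream of Dishevelled, rose 1.32-fold. DAAM1 had 20.3, 20.7 and 20.9 CPM after H3F3A siRNA and 13.5 and 17.8 CPM in scrambled libraries (edgeR adjusted p = 0.0427, and 0.0826 with the GC trend removed). None of 23 tested nuclear cofactors was called. By edgeR without adjustment 3 were lower at p under 0.05 (13%, against 10.9% of all genes) and none was higher.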

How the data were processed

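Poly-A RNA of Rh41 cells was measured in 3 H3F3A siRNA and 2 scrambled siRNA libraries, grouped by their titles. The authors deposited raw, unnormalized counts for each gene, one table per library. Per the submitters' processing notes, the tools were CASAVA, bcl2fastq, STAR 2.5, HTSeq 0.6.1 and DESeq2 with hg19, and their roles are not given in the sources used here. The unstranded column was used, so overlapping genes cannot be told apart. Summary lines, which held 4.84% to 5.48% unmapped, 6.28% to 6.42% multimapping, 9.17% to 10.2% unassigned and 4.45% to 4.56% ambiguous reads, were left out.

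Counts were tested in R 4.3.3 with edgeR 4.0.16 (filterByExpr with a minimum count of 10 and total of 15, TMM, quasi-likelihood fit with robust=TRUE, no covariates), which left 15859 genes. Benjamini-Hochberg adjusted p under 0.05 was called. CPM are scaled by TMM, and the fit was tested on simulated data. GC content and exon length came from GENCODE 29 (GRCh38) by symbol, and 90.5% of tested genes had a value. The GC trend was a loess of span 0.3 per library, used as an offset. Alternatives were DESeq2 1.42.0, upper-quartile scaling, no filter, leaving out each library, GC removal and a replicate block.

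The genes and lists, and the rule for genes given in full (called genes, the highest level per length in each role, the 6 largest changes, called genes of the pathway list), were chosen with earlier results of these data known.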

Additional observations from a re-analysis of the deposited data

How the results depend on the processing

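In an alternative count chosen after the data were seen, the 6 tested antagonists other than CPZ lay below 0 under all 12 alternatives. Of all genes, 43.5% to 49.2% lay below 0 in these fits. The fits reuse the same 5 libraries, so they are not independent of each other. CPZ also lay below 0 in each, which its choice partly fixes. Counts of called genes moved. Wnt genes called lower numbered 2 with the GC trend removed and 2 with upper-quartile scaling (0 and 0 without CPZ and SHISA2). They also numbered 2 without any 1 H3F3A siRNA library (0 without those genes). Wnt genes called higher numbered 0 in each of these fits. Leaving out a scrambled library leaves 1 control library, so counts of called genes from such fits are uncertain. Counts of Wnt genes are not given for the fits that only left out a scrambled library. The ranges given below for leaving out a library include these fits. The highest count in each range came from the fit without scrambled replicate 3. Without scrambled replicate 3 the log2 fold changes of FZD2, LRP5 and TCF7L1 were -0.32, -0.32 and -0.31. Without scrambled replicate 1 they were -0.21, -0.10 and -0.15. With the GC trend removed and scrambled replicate 1 left out, 2 Wnt genes (0 without CPZ and SHISA2), 3 pathway genes and 56 genes in all were lower, and 0, 0 and 18 higher. Over all genes, 207 were called lower with the GC trend removed, 153 higher without the filter, and leaving out a library gave 9 to 1737 lower and 6 to 744 higher. In the further pathway list, 5 were called lower with the GC trend removed, 3 higher without the filter and 2 higher with upper-quartile scaling, and leaving out a library gave 0 to 23 lower and 0 to 12 higher. The cause of these shifts was not tested. DKK3 was called in 5 of 12 alternatives and NOTUM in 2 of 11, fits with 1 control library included. With upper-quartile scaling DKK3 had an edgeR adjusted p = 0.0643 and NOTUM 0.0552.

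With the replicate block, 5 Wnt genes were called lower (3 without CPZ and SHISA2) and 0 higher, and in all 476 genes lower and 98 higher. With the replicate block and the GC trend removed together, 10 Wnt genes were lower and 1 higher (8 and 1 without CPZ and SHISA2). The pathway list had 17 lower and 8 higher, and all genes 766 and 507. Without CPZ and SHISA2, the lower genes were DKK3, DKK2, SFRP1, SFRP4, WNT5A, FZD1, FZD7 and TCF7L1, and the higher was WNT6. With the block, H3F3A siRNA replicate 2 has no scrambled partner and adds nothing to the contrast. Little is then left to estimate the error from, so these counts are uncertain. The labels give no shared source for the numbers. Deviations of same-numbered libraries correlated at 0.213 for replicate 1 and 0.0752 for replicate 3 across 9720 genes. H3F3A siRNA replicate 2 and scrambled replicate 3, numbered differently, correlated at 0.191. With 2 scrambled libraries, each value against scrambled replicate 1 is the reverse of that against scrambled replicate 3. WLS, at a log2 fold change near 0, turned sign with upper-quartile scaling (0.023), without the filter (0.0058), with the replicate block (0.0013) and without scrambled replicate 3 or any 1 H3F3A siRNA library (0.00043 to 0.067), and was -0.068 without scrambled replicate 1. Genes under about 1 CPM, such as DKK2, NKD1 and LRP6, had wide intervals, and depth limits what can be said of them.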

Other observations

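Antisense and divergent transcripts that carry the name of a Wnt gene were close to absent. Of the 7 such rows none passed the filter on low counts. LEF1-AS1 had 13, 1 and 8 reads in H3F3A siRNA libraries and 4 in each scrambled library, and TCF7L1-IT1 had 7, 3 and 6 reads, against 6 and 3 in scrambled libraries. The other 5, named for LGR4, FZD4, ROR1, FZD10 and ZNRF3, had at most 4 reads in a library.

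CELSR2, a cadherin of planar polarity, and NRCAM, an adhesion molecule listed as a Wnt target, were called with the GC trend removed and not without it. CELSR2 had 15.7, 19.95 and 19.8 CPM after H3F3A siRNA and 14.7 and 14.9 CPM in scrambled libraries (log2 fold change 0.32, edgeR adjusted p = 0.108, and 0.0283 with the trend removed). NRCAM had 14.8, 16.95 and 15.01 CPM after H3F3A siRNA and 17.2 and 21.7 CPM in scrambled libraries (log2 fold change -0.32, edgeR adjusted p = 0.103, and 0.0349 with the trend removed).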
